A study of Arabidopsis thaliana with 27 samples.

Results

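The 10 genes described here encode stress-related WRKY transcription factors of Arabidopsis thaliana: WRKY33 (AT2G38470), WRKY25 (AT2G30250), WRKY26 (AT5G07100), WRKY40 (AT1G80840), WRKY18 (AT4G31800), WRKY60 (AT2G25000), WRKY6 (AT1G62300), WRKY75 (AT5G13080), WRKY53 (AT4G23810) and WRKY70 (AT3G56400). They were chosen by locus identifier from the 33602 genes counted, with an earlier difference of WRKY33 between the CL37 and fae1 lines already known. Values of CL37 minus fae1 are therefore given as a description without a test. PDAT minus CL37, PDAT minus fae1 and the changes with age in CL37 and fae1 share libraries with that comparison, whereas the change with age within PDAT uses none of its libraries. The differences of the PDAT change from these changes share them too. The p-values of all comparisons that share libraries are therefore not free of the choice of members. The reference names 62 other WRKY loci, which serve as a comparison.

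Transcripts were counted in developing seeds of 3 lines, each at 7-8, 9-10 and 11-12 days after flowering. The mutant fae1 lacks a seed enzyme that extends fatty acids to very long chains, and as the other lines were built in this mutant, every group carries it. CL37 additionally expresses the castor fatty acid hydroxylase RcFAH12 in seeds, and PDAT is CL37 that also expresses the castor acyltransferase RcPDAT1a in seeds. The labels name 3 biological replicates (A, B and C) for each of the 9 groups, 27 libraries in all, with seeds taken out of frozen siliques of about 50 plants per line grown in constant light. Each transgenic genotype is represented by 1 line, and the labels do not name the promoters.

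WRKY proteins are plant transcription factors named after the conserved WRKYGQK stretch of their DNA-binding domain, and they bind the W box, a short promoter element found in many stress genes and in WRKY genes themselves. Many of them are induced within minutes to hours by microbial elicitors, wounding or heat, and they feed forward or back on each other. WRKY33 is phosphorylated by the mitogen-activated kinases MPK3 and MPK6 and activates synthesis of the phytoalexin camalexin, and it acts with WRKY25 and WRKY26 in heat tolerance. WRKY18, WRKY40 and WRKY60 bind one another and modulate defence and abscisic acid responses. WRKY6, WRKY75, WRKY53 and WRKY70 are best known from leaf senescence, phosphate supply and salicylate signalling.

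The coding sequence of the WRKYGQK stretch is shown for WRKY33, WRKY25 and WRKY26, because these are the members with 2 such stretches in RefSeq's TAIR10.1 annotation, where each of the other 7 has 1. The sequences run from 5′ to 3′ on the coding strand, and every base shown belongs to the codons of these 7 residues.
WRKY33 first stretch: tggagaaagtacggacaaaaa
WRKY33 second stretch: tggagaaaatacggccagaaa
WRKY25 first stretch: tggagaaaatacggtcagaaa
WRKY25 second stretch: tggaggaaatatggtcaaaaa
WRKY26 first stretch: tggcgcaaatacgggcagaag
WRKY26 second stretch: tggagaaagtatggtcagaaa
All 6 encode the same residues and no pair of them is spelled alike. Over the whole proteins, WRKY33 and WRKY26 were identical at 57.9% of the length of the shorter one, WRKY25 and WRKY26 at 52.8%, and WRKY33 and WRKY25 at 45.8%. The closest pair among the 10 was WRKY18 and WRKY60 at 67.9%, and WRKY40 matched WRKY18 at 45.7% and WRKY60 at 44.6%.

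The 300 bases before the annotated gene start are shown for 3 members that differ in W boxes and in level. WRKY33 had the most W boxes and the highest level, WRKY53 had W boxes and hardly any counts, and WRKY60 had none and fell with age in CL37. The capitals mark the W box, searched as TTGACC or TTGACT on both strands, so that AGTCAA and GGTCAA are the same element read from the other strand. No W box overlapped another. Each sequence runs 5′ to 3′ on the strand of its gene, from RefSeq TAIR10.1.
WRKY33, chr2:16107935-16108234, plus strand: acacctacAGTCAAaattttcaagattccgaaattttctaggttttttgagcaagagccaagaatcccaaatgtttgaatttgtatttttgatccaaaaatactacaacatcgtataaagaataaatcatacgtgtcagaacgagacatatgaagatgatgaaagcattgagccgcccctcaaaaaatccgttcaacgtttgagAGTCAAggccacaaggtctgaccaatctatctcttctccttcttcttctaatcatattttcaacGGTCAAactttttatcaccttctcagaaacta
WRKY53, chr4:12393983-12394282, minus strand: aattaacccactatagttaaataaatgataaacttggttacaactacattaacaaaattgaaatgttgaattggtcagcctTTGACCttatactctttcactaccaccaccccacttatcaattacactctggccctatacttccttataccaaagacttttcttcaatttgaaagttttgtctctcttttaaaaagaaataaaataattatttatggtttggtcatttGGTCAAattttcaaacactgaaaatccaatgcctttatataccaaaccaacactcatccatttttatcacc
WRKY60, chr2:10629362-10629661, plus strand: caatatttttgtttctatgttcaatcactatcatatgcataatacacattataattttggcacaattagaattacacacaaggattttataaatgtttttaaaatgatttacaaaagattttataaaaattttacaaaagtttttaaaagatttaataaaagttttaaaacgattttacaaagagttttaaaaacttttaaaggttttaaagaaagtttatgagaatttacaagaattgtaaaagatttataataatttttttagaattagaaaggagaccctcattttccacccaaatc
The WRKY33 window held 3 W boxes, starting 292, 96 and 32 bases before the gene, and the WRKY53 window held 2, starting 219 and 71 bases before it. Of all 27443 windows of this length, 32.3% held at least 1 W box, 7.91% at least 2 and 1.57% at least 3. WRKY75, WRKY25 and WRKY26 held 1 each, and WRKY40, WRKY18, WRKY60, WRKY6 and WRKY70 held none. These matches describe letters only, and the windows of WRKY25 and WRKY26 overlap neighbouring genes.

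The libraries held 4126510 to 22403287 counts in genes and 19541 to 22650 detected genes. A count of 3 corresponded to 0.151 to 0.773 CPM (each library's counts brought to a common size with TMM factors), and members below that level cannot be ranked. Seed markers summed at 11-12 days to 174000 to 269000 CPM in fae1, 103000 to 183000 in CL37 and 122000 to 125000 in PDAT, so that every PDAT library lay below those of fae1 and CL37 overlapped both. The largest part of these sums was CRU3, at means of 167000, 95700 and 86500 CPM in fae1, CL37 and PDAT. Of the 5 seed markers only LEC1 had a higher mean in PDAT than in fae1 (5.76 against 4.79 CPM). The part of the seed markers in the differences between lines was not tested. The 8 markers of silique wall and stomata summed to 2.08 to 5.56 CPM in CL37, 2.04 to 4.39 in PDAT and 3.23 to 5.39 in fae1 at that stage. IND, SLAC1, KAT1 and CA1 of that list were at 0 in all 3 CL37 libraries of 11-12 days. No tested marker of seed, silique wall, seed coat or endosperm was called between lines at that stage. The endosperm markers summed to 1.54 to 4.67 CPM in PDAT, 0.892 to 1.68 in CL37 and 0.676 to 1.85 in fae1 there, and their part in the results was not tested. Replicate A of fae1 at 7-8 days lay far from its own group, with seed markers at 125000 CPM against 5330 in the lowest of them. Changes with age in fae1, their difference from PDAT and the correlations are also given without it.

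Of the 10 members, 6 had enough counts for the test (WRKY33, WRKY25, WRKY40, WRKY18, WRKY60 and WRKY6), which was edgeR's quasi-likelihood test with Benjamini-Hochberg adjustment over all 18897 genes tested and a call at an adjusted p below 0.05. WRKY26, WRKY75, WRKY53 and WRKY70 were not tested and are given as counts. In the plot of levels by library, WRKY33, WRKY25, WRKY26, WRKY40, WRKY6 and WRKY18 were highest in CL37 at 11-12 days. The share of all genes that separate this way was not counted, so nothing is read from the number of members. At that stage 1990 genes were called higher in CL37 than in fae1, and 482 lower in PDAT than in CL37. WRKY40 had enough counts for the test only through that CL37 group. Some members already rose before that stage. WRKY33 in CL37 went from 0.434 to 0.581 CPM at 7-8 days to 1.26 to 10.0 CPM at 9-10 days, and WRKY25 there from 0 to 0.260 CPM to 1.05 to 6.44 CPM. WRKY33 in PDAT went from 0.0534 to 0.624 CPM to 0.991 to 1.62 CPM, and none of these pairs of stages overlapped.

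**Figure D1:**
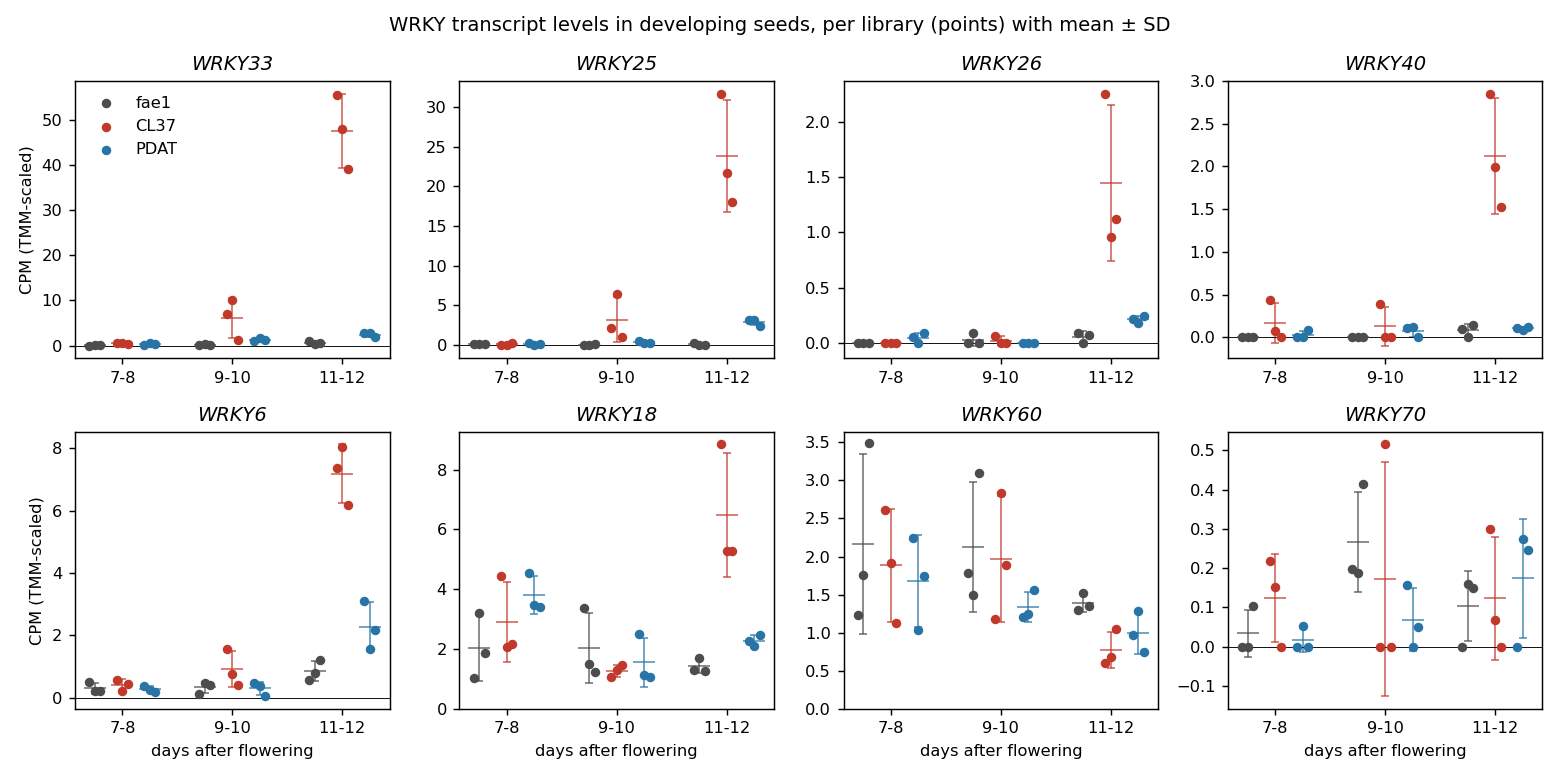
Level in CPM (linear axis, different scale in each panel) of 8 of the 10 genes against days after flowering. Points are single libraries, and the bars give the mean and SD of 3 replicates of fae1 (grey), CL37 (red) and PDAT (blue). The 3 CL37 libraries of 11-12 days lie above every other library for WRKY33, WRKY25, WRKY26, WRKY40, WRKY6 and WRKY18, and the WRKY70 panel shows a gene with at most 4 counts in any library. The share of all genes that separate this way was not counted.

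WRKY33, the camalexin regulator, was nearly silent in fae1 seeds and was the most abundant member in CL37 at 11-12 days, with PDAT between them. Its counts in fae1 (libraries A, B and C) were 0, 1 and 1 at 7-8 days, 2, 3 and 1 at 9-10 days, and 10, 3 and 8 at 11-12 days. In CL37 they were 8, 6 and 5, then 105, 39 and 6, then 370, 701 and 487. In PDAT they were 1, 12 and 5, then 19, 13 and 23, then 25, 30 and 31. The groups did not overlap at 11-12 days, where the levels were 0.589 ± 0.341 CPM in fae1, against 47.6 ± 8.27 in CL37 and 2.45 ± 0.463 in PDAT (mean ± SD, n = 3). As seeds were sampled whole, more cells that express the gene and more RNA per cell cannot be told apart. CL37 exceeded fae1 by 6.34 ± 0.49 on the log2 scale (± SE) at this stage, as a description. At 9-10 days the 3 CL37 libraries spread from 1.26 to 10.0 CPM, with replicate C the lowest and 5.08 ± 0.64 on the log2 scale between the group and fae1.

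PDAT carried much less WRKY33 RNA than CL37 and somewhat more than fae1. Both comparisons reuse libraries of the comparison behind the choice of members, so their p-values are not free of it. At 11-12 days PDAT was lower than CL37 by a log2 difference of -4.29 ± 0.42 (adjusted p = 2.81e-06), lower in 3 of 3 libraries, and leaving out any 1 of the 6 libraries gave -4.42 to -4.12. PDAT exceeded fae1 at the same stage by 2.04 ± 0.55 (adjusted p = 0.027), again in 3 of 3 libraries. That call was lost without fae1 B (adjusted p = 0.118), fae1 C (0.0839), PDAT A (0.0917) or PDAT B (0.0523). At 9-10 days PDAT minus CL37 was -2.33 ± 0.46 with an adjusted p of 0.0839, and the CL37 C library, at 1.26 CPM, lay among the PDAT libraries of 0.991 to 1.62 CPM.

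WRKY33 rose with age within PDAT, the comparison that shares no library with the one behind the choice of members. From 7-8 to 11-12 days the change was 2.69 ± 0.56 on the log2 scale (adjusted p = 0.000356), with levels of 0.0534, 0.624 and 0.437 CPM against 2.68, 2.75 and 1.91. Leaving out PDAT A of 7-8 days gave 2.12 and leaving out PDAT B of that stage gave 3.49, and the call was kept in both. In CL37 the change was 6.56 ± 0.50 (adjusted p = 1.78e-09). The change with age in PDAT was smaller than that in CL37 by a log2 difference of -3.87 ± 0.86 (adjusted p = 0.0292). Both values use CL37 libraries of the comparison behind the choice of members, so their p-values are not free of it. This test of the difference lost its call without any 1 of 8 of the 12 libraries: CL37 A, B or C of 7-8 days (adjusted p = 0.057, 0.073 and 0.079), CL37 A or B of 11-12 days (0.0677 and 0.0546), PDAT B or C of 7-8 days (0.378 and 0.0934) and PDAT C of 11-12 days (0.0784). From the fae1 change, the PDAT change differed by -0.21 on the log2 scale (adjusted p = 0.911), which was not called. Leaving out replicate A of fae1 at 7-8 days moved this difference to 0.31, again not called (adjusted p = 0.94). No standard error is given for these 2 values, because the one used here is unreliable near a change of 0. In fae1 the 21 counts of 11-12 days stood against 2 counts of 7-8 days. Their ratio was 8.35, with a 95% interval of 2.04 to 73.5 for counting error only. The log2 change in fae1 was 2.90 ± 1.10. Its adjusted p of 0.0322 did not hold without fae1 A, B or C of 7-8 days (0.0921, 0.0738 and 0.0697) or without fae1 A or C of 11-12 days (0.112 and 0.0613).

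WRKY25, which acts with WRKY33 in heat tolerance and has its own pair of WRKY stretches, followed the same order of lines. At 11-12 days its counts were 3, 0 and 1 in fae1, 211, 316 and 225 in CL37 and 29, 34 and 40 in PDAT. The levels were 0.117 ± 0.143, 23.8 ± 7.07 and 2.90 ± 0.371 CPM, and no 2 of the groups overlapped. PDAT was lower than CL37 by a log2 difference of -3.04 ± 0.44 (adjusted p = 0.000156) and higher than fae1 by 4.59 ± 0.73 (adjusted p = 0.000269). The second value rests on 4 counts in fae1 and moved between 4.03 without fae1 B and 5.88 without fae1 A, with the call kept. WRKY25 also stood at 4 counts or fewer in every library of 7-8 days, whatever the line.

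Within PDAT, WRKY25 rose with age by 4.46 ± 0.67 (adjusted p = 1.04e-05), from 4, 1 and 1 counts at 7-8 days through 10, 2 and 5 at 9-10 days. Leaving out PDAT A of 7-8 days gave 5.25 with the call kept. In CL37 it rose by 7.68 ± 0.65 (adjusted p = 6.36e-09), with 32, 25 and 5 counts at 9-10 days, where the C library was the lowest, as it was for WRKY33. Leaving out CL37 A of 7-8 days gave 7.09 and leaving out CL37 C of 7-8 days gave 8.96. In fae1 it was not called with age (log2 change -0.30 ± 1.23, adjusted p = 0.859, or -0.46 and 0.793 without fae1 A of 7-8 days). The difference of the PDAT change from the CL37 change was -3.23 ± 1.30 (adjusted p = 0.346) and from the fae1 change 4.75 ± 1.63 (adjusted p = 0.068, or 4.91 and 0.0567 without fae1 A of 7-8 days), so neither passed. At 9-10 days all 3 PDAT libraries were below the CL37 ones (-2.99 ± 0.60, adjusted p = 0.0863).

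WRKY26, the third member with a pair of WRKY stretches, gave counts in few libraries and was not tested. It was at 0 in all 3 libraries of CL37 at 7-8 days and reached 15, 14 and 14 counts there at 11-12 days, against 2, 2 and 4 in PDAT and 1, 0 and 1 in fae1. CL37 was above both other lines in every library at 11-12 days. The summed CL37 counts exceeded those of PDAT by a ratio of 5.81 (95% interval 2.70 to 14.3, counting error only) once scaled to library size, and those of fae1 by 23.3 (6.08 to 199.0). WRKY33, WRKY25 and WRKY26 thus had the same order of mean levels at 11-12 days, CL37 above PDAT above fae1, with the PDAT to fae1 ratio of WRKY26 at 4.01 and its interval from 0.801 to 38.8.

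The interacting members WRKY40, WRKY18 and WRKY60 did not move alike. WRKY40 was at 0 counts in all 6 fae1 libraries of 7-8 and 9-10 days and had 1, 0 and 2 counts at 11-12 days. It reached 19, 29 and 19 counts in CL37 at 11-12 days and stayed at 1, 1 and 2 in PDAT. CL37 thus stood apart from both other lines, which overlapped each other. The gene passed the low-count filter through these 3 CL37 libraries, since no other library of it exceeded 0.436 CPM, so a difference from that group was built in and the p-values below support nothing. PDAT was lower than CL37 by a log2 difference of -4.13 ± 0.84 (adjusted p = 0.0073), on 4 counts in PDAT, and the call was lost without PDAT C (adjusted p = 0.0558). The ratio of CL37 to the 3 counts of fae1 was 24.2, with an interval of 7.94 to 120.0 for counting error only. In CL37 it rose with age by 3.46 ± 0.77 (adjusted p = 0.00081), or by 5.36 without CL37 A of 7-8 days, the library with 6 of the 7 counts of its group.

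WRKY18 was present in all 27 libraries and changed less. Its counts at 11-12 days were 14, 21 and 17 in fae1, 59, 77 and 66 in CL37 and 21, 23 and 40 in PDAT, which gave 1.42 ± 0.233, 6.48 ± 2.06 and 2.28 ± 0.182 CPM. The 3 lines did not overlap. PDAT was lower than CL37 by -1.48 ± 0.39 (adjusted p = 0.0419), a call lost without CL37 A (0.258), CL37 B (0.0642), PDAT A (0.106), PDAT B (0.174) or PDAT C (0.125). In CL37 it rose with age by 1.13 ± 0.38 (adjusted p = 0.0145), and without CL37 B or C of 7-8 days or A of 11-12 days the adjusted p was 0.0707, 0.0618 and 0.0814. In PDAT its change was -0.74 ± 0.39 (adjusted p = 0.113), with every library of 11-12 days below those of 7-8 days.

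WRKY60, the nearest relative of WRKY18, was the member with the opposite direction. It fell with age in CL37, from 1.89 ± 0.745 to 0.776 ± 0.234 CPM (log2 change -1.25 ± 0.44, adjusted p = 0.0185). The change in fae1 was -0.63 ± 0.41 (adjusted p = 0.203), or -0.91 without fae1 A of 7-8 days (adjusted p = 0.0667), and in PDAT -0.76 ± 0.42 (adjusted p = 0.131). The CL37 call was lost without CL37 A of 7-8 days (adjusted p = 0.109) or CL37 A or B of 11-12 days (0.0547 and 0.0702), and with the percent of non-uniquely aligned reads as a covariate, where the change was -0.65 (adjusted p = 0.335). At 11-12 days all 3 CL37 libraries, at 0.601 to 1.04 CPM, were below the fae1 libraries, at 1.29 to 1.53 CPM, and PDAT minus CL37 was 0.30 ± 0.47 (adjusted p = 0.92).

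WRKY6, known from senescence and as a repressor of the phosphate exporter gene PHO1, was highest at 11-12 days in all 3 lines by their means, with calls in CL37 and PDAT. Its counts at 11-12 days were 6, 10 and 16 in fae1, 49, 117 and 77 in CL37 and 29, 17 and 35 in PDAT. The levels of 0.853 ± 0.327, 7.19 ± 0.938 and 2.27 ± 0.782 CPM did not overlap between lines. Within PDAT it rose with age by 2.97 ± 0.52 (adjusted p = 5.86e-05), with a call whichever library was left out. With the percent of non-uniquely aligned reads as a covariate the PDAT change was 2.17 (adjusted p = 0.0244). In CL37 it rose by 4.08 ± 0.49 (adjusted p = 4.64e-07), and in fae1 the change was 1.45 ± 0.61 (adjusted p = 0.0514). Without fae1 A of 7-8 days the fae1 change was 2.02 ± 0.75 and passed (adjusted p = 0.0236). PDAT was lower than CL37 at 11-12 days by -1.67 ± 0.41 (adjusted p = 0.0251), a call lost without CL37 A (0.0897), CL37 B (0.117), PDAT B (0.169) or PDAT C (0.123). PDAT minus fae1 was 1.38 ± 0.46 (adjusted p = 0.0761).

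WRKY75, WRKY53 and WRKY70 were near the limit of detection everywhere. WRKY75, a regulator of phosphate starvation and senescence, had at most 5 counts in any library and 30 in all. WRKY53, a regulator of leaf senescence, had at most 4 and 29 in all, and WRKY70, which sits between salicylate and jasmonate signalling, at most 4 and 36 in all. At 11-12 days the groups of each overlapped between all lines, and a difference was not detectable at this depth. At the earlier stages some groups did not overlap, on single counts and without a test. The share of all genes with such a gap was not counted, so nothing is read from these cases. WRKY75 had 2, 4 and 2 counts in fae1 at 9-10 days, against 0 in all 3 CL37 libraries and 1, 0 and 0 in PDAT. WRKY70 had 3, 2 and 4 in fae1 at that stage, and its level in CPM lay above that of all 3 PDAT libraries, which had 3, 0 and 1. WRKY53 had 2, 1 and 1 in fae1, with CL37 lower at 1, 0 and 0, and at 7-8 days PDAT, with 3, 4 and 1, lay above CL37, with 1 in each library, by a margin of 0.0874 against 0.0867 CPM between the nearest libraries.

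Per kilobase of exon, which allows genes to be compared, WRKY33 led at 11-12 days in CL37 with 23.5 ± 4.08 CPM per kb, followed by WRKY25 with 13.4 ± 3.98, and the 2 did not overlap. WRKY18, at 3.20 ± 1.02, and WRKY6, at 3.10 ± 0.405, did not differ beyond their spread. The lower pair WRKY40, at 1.60 ± 0.509, and WRKY26, at 0.917 ± 0.447, overlapped in range, but WRKY40 was the higher within each library. WRKY60 followed at 0.491 ± 0.148. In PDAT WRKY25 was at 1.63 ± 0.208, with every library above those of WRKY33 at 1.21 ± 0.229. WRKY33, WRKY18 at 1.12 ± 0.0901 and WRKY6 at 0.981 ± 0.337 overlapped one another and were not ordered. In fae1 the highest were WRKY60 at 0.879 ± 0.0771 and WRKY18 at 0.700 ± 0.115, whose ranges overlapped, with WRKY60 the higher within each library.

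**Figure D2:**
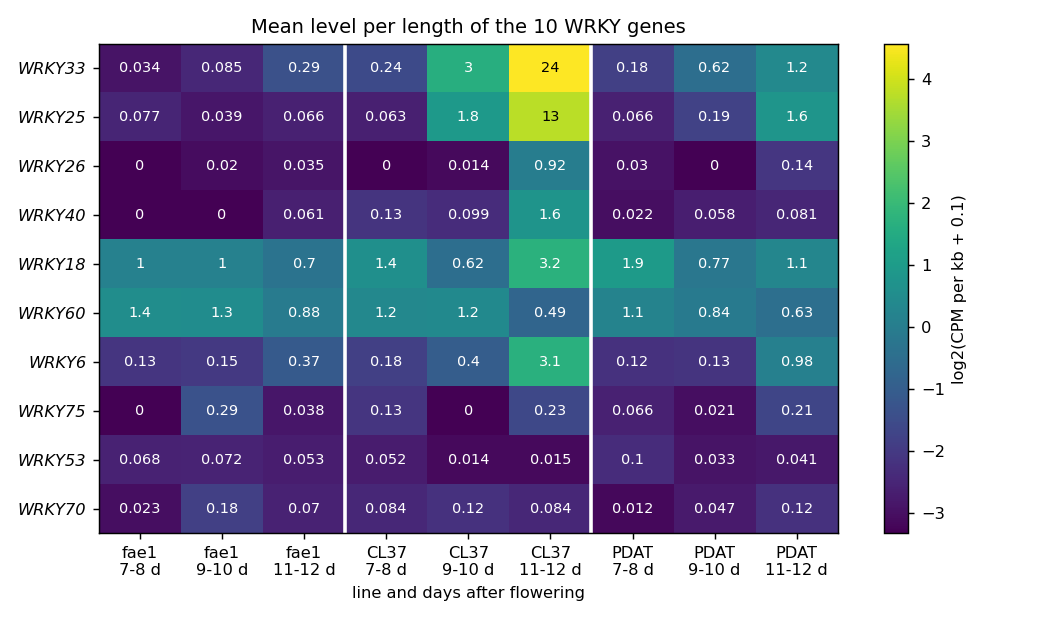
Mean level of each of the 10 genes (rows) in each line and stage (columns), as CPM per kilobase of exon, printed in each cell. Colour is log2 of that level plus 0.1. The brightest cells are WRKY33 and WRKY25 in CL37 at 11-12 days, and WRKY75, WRKY53 and WRKY70 stay dark throughout.

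Counted over the members, CL37 minus fae1 gave 0, 2 and 5 calls at the 3 stages, where 0.0265%, 0.741% and 15.6% of all tested genes were called, and nothing is read from these counts because the choice of members used the comparison. The 2 were WRKY33 and WRKY25, and the 5 added WRKY40, WRKY18 and WRKY6, all higher in CL37. PDAT minus CL37 gave 0, 0 and 5 of 6, all 5 lower in PDAT, against a background of 0.0106%, 0.0212% and 2.65%. At 11-12 days 482 of the 500 genes called there were lower in PDAT, so the shared direction is that of nearly all called genes. PDAT minus fae1 gave 0, 0 and 2 of 6, both higher in PDAT, against 8.64%, 0.09% and 6.61%. Of the 1249 genes called there at 11-12 days, 932 were higher in PDAT. Behind the counts of 0 with edgeR, 1 member at 7-8 days and 2 at 9-10 days had an unadjusted p below 0.05 in PDAT minus fae1, where 27.8% and 12.9% of all genes did, and 0 and 3 in PDAT minus CL37, where 11.4% and 3.83% did. Without fae1 A of 7-8 days the count of PDAT minus fae1 at that stage was again 0. DESeq2 called 0 and 1 in the first comparison and 0 and 2 in the second.

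The changes from 7-8 to 11-12 days called 1 member in fae1, 6 in CL37 (5 higher, 1 lower) and 3 in PDAT, all higher. As 50.5%, 58.1% and 53.9% of all genes were called with age, the count in PDAT is near its background. The difference of the PDAT change from the CL37 change called 1 member, with a negative value, against a background of 0.704%. Of the 133 genes called there, 128 were negative. The difference from the fae1 change called 0 against 7.64%. In it 1 member had an unadjusted p below 0.05 with edgeR, as 27.6% of all genes had, and DESeq2 called 1. Without fae1 A of 7-8 days the fae1 count was again 1, WRKY6 in place of WRKY33, and the difference from the fae1 change again called 0. Since WRKY40 passed the low-count filter through CL37 of 11-12 days alone, the counts over the 6 tested members describe them and support nothing.

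**Figure D3:**
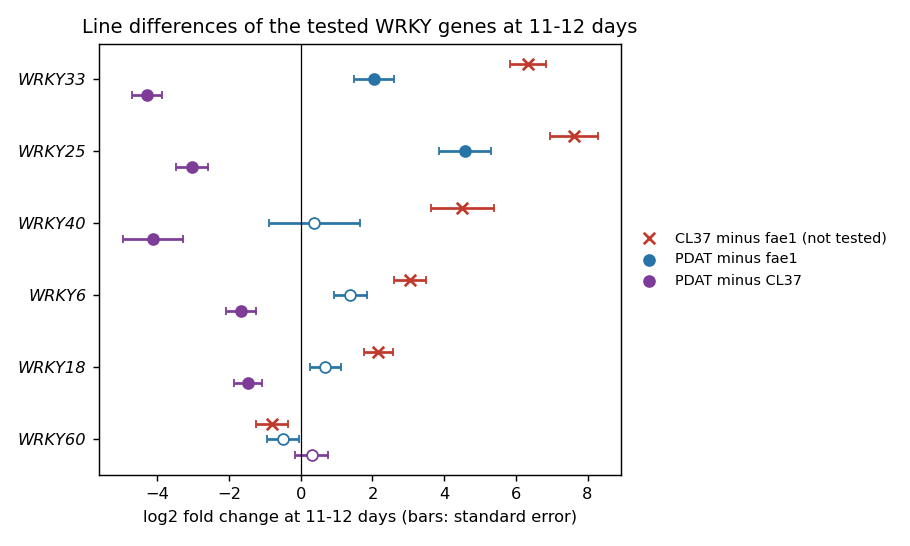
Log2 fold change at 11-12 days (linear axis, bars are the standard error) of the 6 tested genes in the 3 line comparisons, 3 libraries per group. Filled circles were called and open circles were not, and the crosses of CL37 minus fae1 are a description without a test. WRKY33 lies at 6.34 (cross), 2.04 and -4.29 and WRKY25 at 7.62 (cross), 4.59 and -3.04, with all 4 circles filled.

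Among the 62 other WRKY loci, 30 were tested. By mean level at 11-12 days WRKY48, WRKY15 and WRKY39 had CL37 above PDAT above fae1. WRKY24 was highest in PDAT, at 4.85, 9.36 and 13.6 CPM in fae1, CL37 and PDAT. In PDAT WRKY4 was near its fae1 level (4.28 against 4.07 CPM). WRKY8 was at 0.163 CPM in PDAT against 0.251 CPM in fae1, on too few counts to rank the lines (-0.76 ± 0.99, adjusted p = 0.665). PDAT minus CL37 at 11-12 days called 4 of the 30, against 2.65% of all genes. All 4 were lower in PDAT, as were 482 of the 500 genes called: WRKY8 (-4.15 ± 0.77), WRKY48 (-2.24 ± 0.36), WRKY4 (-1.23 ± 0.29) and WRKY15 (-0.75 ± 0.19). PDAT minus fae1 called 4, against 6.61% of all genes. These 4 were higher in PDAT, as were 932 of the 1249 genes called: WRKY48 (3.23 ± 0.48), WRKY24 (1.48 ± 0.42), WRKY15 (1.09 ± 0.19) and WRKY39 (0.41 ± 0.12). WRKY48, a regulator of basal defence, had 6, 3 and 7 counts in fae1, 147, 348 and 170 in CL37 and 48, 39 and 64 in PDAT. The groups did not overlap, and its adjusted p was 0.000586 against CL37 and 0.000126 against fae1. WRKY8, known from wounding and pathogen responses, had 3, 5 and 1 counts in fae1, 21, 29 and 38 in CL37 and 2, 3 and 0 in PDAT.

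WRKY15 rose in PDAT over fae1 in 3 of 3 libraries (adjusted p = 0.000813), at 14.6 CPM in fae1, against 52.7 in CL37 and 31.1 in PDAT. WRKY4, WRKY8, WRKY24 and WRKY48 were named because they made up these counts, after their values were seen. WRKY8 averaged 2.73 CPM in CL37 at 11-12 days and at most 0.639 CPM in any other group. As for WRKY40, a difference from that group may be built in, so its call supports nothing. The calls of WRKY48 and WRKY8, and that of WRKY15 over fae1, were kept with each library left out. Those of WRKY4 were lost without CL37 A or B or PDAT A or C (adjusted p = 0.106, 0.0873, 0.078 and 0.109), and that of WRKY15 against CL37 without CL37 A or PDAT B or C (0.293, 0.159 and 0.0801). WRKY24 lost its call without fae1 A or B or PDAT A, B or C (0.158, 0.141, 0.142, 0.0679 and 0.0551). WRKY39 lost its call without fae1 A, B or C or PDAT A or B (0.091, 0.109, 0.115, 0.163 and 0.0814). CL37 minus fae1 at 11-12 days, as a description, had 10 of the 30 called higher and 0 called lower. Over all genes 15.6% were called there, 1990 higher and 955 lower.

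Genes around the members were described by lists. Of all tested genes at 11-12 days, PDAT minus fae1 called 6.61% (932 higher, 317 lower) and PDAT minus CL37 2.65% (18 higher, 482 lower). The list counts below stand beside these shares and were not tested against them. Of the upstream kinases and partners of WRKY33, 12 of 14 were tested, and PDAT minus fae1 at 11-12 days called 1, MKK4, a kinase that activates MPK3 and MPK6, at 0.72 ± 0.21 (adjusted p = 0.0416). The call was lost without any 1 of the 6 libraries, with an adjusted p of 0.0519 to 0.199. PDAT minus CL37 called 0 of the 12. MPK3 itself was at 12.5, 17.5 and 13.3 CPM in fae1, CL37 and PDAT. Of the camalexin and indole defence list only 3 of 9 were tested, and the targets of WRKY33 in camalexin synthesis were thus mostly too low for the test. At 11-12 days PAD3 averaged 0.0615, 0 and 0.0305 CPM in fae1, CL37 and PDAT, and CYP71A13 averaged 0.198, 0.811 and 0.915 CPM. PDAT minus fae1 called 0 of the 3 tested genes, with GGP1 at 0.40 ± 0.27 (adjusted p = 0.377) and ASA1 at -0.37 ± 0.22 (adjusted p = 0.31). PDAT minus CL37 called 1, the glutathione transferase GSTF6, lower by -4.46 ± 0.74 (adjusted p = 0.000721).

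Ethylene response genes had 6 of 9 members tested. PDAT minus fae1 called 2, both higher: ERF104, a substrate of MPK6, at 2.72 ± 0.52 (adjusted p = 0.00182), and ERF5 at 2.26 ± 0.56 (adjusted p = 0.0176). PDAT minus CL37 called 2, both lower: ERF5 at -2.76 ± 0.41 (adjusted p = 0.000208) and ERF6 at -2.30 ± 0.53 (adjusted p = 0.0137). ERF5 was at 0.190 CPM in fae1, against 6.48 in CL37 and 0.946 in PDAT, the order seen for WRKY33. Its call over fae1 was lost without fae1 A, B or C or PDAT A or C (adjusted p = 0.0691, 0.0698, 0.0554, 0.0519 and 0.0576), and that of ERF6 without CL37 A or C or PDAT B or C (0.0511, 0.0639, 0.0993 and 0.0816). ERF6 averaged 2.24 CPM in CL37 at 11-12 days and at most 0.64 CPM in any other group. A difference from that group may be built in, as for WRKY40, so the ERF6 call supports nothing.

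Heat genes tied to WRKY25, WRKY26 and WRKY33 had 5 of 6 members tested. ZAT12, a zinc finger gene of light and oxidative stress, was at 3.55 CPM in fae1, against 97.9 in CL37 and 31.0 in PDAT. It was called higher than in fae1 (3.13 ± 0.35, adjusted p = 4.76e-06) and lower than in CL37 (-1.66 ± 0.31, adjusted p = 0.00226). MBF1C, a coactivator of heat tolerance, was higher than in fae1 (2.08 ± 0.57, adjusted p = 0.0325) and showed 0.15 ± 0.53 against CL37 (adjusted p = 0.98). The MBF1C call was lost without fae1 A or B or PDAT B or C (adjusted p = 0.153, 0.102, 0.0766 and 0.0682).

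Of the salicylate list 6 of 14 were tested, and SAG101, a partner of the immune regulator EDS1, was the gene called in both comparisons. It was higher in PDAT than in fae1 (3.80 ± 0.52, adjusted p = 4.67e-05) and lower than in CL37 (-1.61 ± 0.37, adjusted p = 0.0141), the latter lost without CL37 A or PDAT B or C (0.131, 0.115 and 0.0674). Of the senescence list 5 of 7 were tested, and SAG21, a late embryogenesis abundant gene induced by oxidants, was higher than in fae1 (1.90 ± 0.52, adjusted p = 0.0314) and lower than in CL37 (-3.48 ± 0.43, adjusted p = 3.0e-05). The first call was lost without fae1 B or C or PDAT A (0.0987, 0.126 and 0.198).

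Of the abscisic acid genes tied to WRKY40, WRKY18 and WRKY60, 5 of 6 were tested. ABF4, a transcription factor of the abscisic acid response, was lower in PDAT than in fae1 (-1.04 ± 0.28, adjusted p = 0.0298), a call lost without fae1 A or B or PDAT A or C (0.128, 0.0718, 0.118 and 0.097). ABI5, which acts in seed maturation, was lower than in CL37 (-1.57 ± 0.40, adjusted p = 0.0304), a call lost without CL37 A or B or PDAT A, B or C (0.13, 0.109, 0.0571, 0.169 and 0.123). Of the phosphate genes tied to WRKY6 and WRKY75, 3 of 5 were tested. PHO1 was higher in PDAT than in fae1 (0.82 ± 0.19, adjusted p = 0.0113), lost without fae1 A or C (0.0649 and 0.0509), and PDAT minus CL37 called 0 of these 3. Both comparisons share the PDAT libraries, and the median log2 value of the tested genes of a list ranged over these 8 lists from -0.59 to 1.56 in PDAT minus fae1 (0.029 over all genes) and from -0.79 to 0.05 in PDAT minus CL37 (0.02 over all genes).

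Across the 27 libraries, the tested genes most like WRKY33 by Pearson correlation of log2 CPM were ATERDJ3A (r = 0.955), ERF2 (r = 0.951), AT5G15870 (r = 0.940), AT5G35735 (r = 0.939) and AT3G02840 (r = 0.939). The libraries share their line, stage and depth, so the values are given without a test. ATERDJ3A, an endoplasmic reticulum J protein gene, was at 17, 87 and 33 CPM at 11-12 days in the order fae1, CL37, PDAT. ERF2, an ethylene response factor gene, was at 0.267, 11.9 and 2.05 CPM. Among the members, WRKY25 followed WRKY33 most closely, at r = 0.926 and place 17 of 18896 genes. WRKY40 had r = 0.831, WRKY6 r = 0.821, WRKY18 r = 0.377 and WRKY60 r = -0.569. Over the 26 libraries without fae1 A of 7-8 days the 5 genes named had r = 0.945 to 0.963, WRKY25 r = 0.931, WRKY40 r = 0.832, WRKY6 r = 0.836, WRKY18 r = 0.334 and WRKY60 r = -0.61.

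Some counts could hold reads of neighbours, since the labels do not state strand use and the kit named does not mark strand. WRKY33 shares 272 bases with the noncoding gene AT2G08965, which has no row in the count files, and 26 with AT2G38480. WRKY40 shares 51 bases with AT1G80850, and WRKY53 shares 341 with AT4G23800, all on the opposite strand. The authors' deposited table of FPKM gave WRKY33 at 11-12 days 7.38 in fae1, 18.61 in CL37 and 1.36 in PDAT, and WRKY25 4.05, 11.73 and 1.98. The fae1 values stand against 0.119 to 0.455 CPM per kb of WRKY33 in the 3 fae1 count files and 0.000 to 0.156 of WRKY25, so the order of fae1 and PDAT differs between the authors' deposited table and the counts. The authors' deposited table also puts fae1 above PDAT at 11-12 days for WRKY18 (2.42 against 1.99), WRKY6 (1.31 against 1.18), WRKY40 (0.55 against 0.10) and WRKY26 (0.39 against 0.21). For WRKY53 at 7-8 days the authors' deposited table gives 1.8 to 2.19 FPKM, where the count files hold 0 to 4 counts per library. That table was not used for comparisons, and the libraries named C in fae1 and CL37 at 11-12 days were left out as an alternative.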

How the data were processed

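Seed RNA was sequenced from TruSeq mRNA v2 libraries, per the labels. The authors deposited unnormalized gene counts, with a file for each library, and 1 table of FPKM with 1 pooled value per group. The tools listed in the submitters' processing notes are Cufflinks 2.0.1, HTSeq 0.5.4p3, TopHat2 2.0.3, Trimmomatic 0.22 and bcl2fastq 1.8.2, with TAIR10 as the build; counting settings are not given in the sources used here. The 5 summary lines per file (4.68% to 20.5% of its total) stayed out of library sizes and tests. The spread between replicates exceeded counting error, with 2.88 to 252 for chi-square over its degrees of freedom.

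Counts were scaled with TMM in R 4.3.3, edgeR 4.0.16 (limma 3.58.1), filtered with edgeR's expression filter on the 9 groups and fitted with a robust quasi-likelihood model over all 27 libraries. Tests are 2-sided, p-values were adjusted over 18897 genes, and a standard error is the log2 change divided by the root of its F value. Correlations were taken on log2 CPM, prior count 2. In counts simulated for PDAT minus fae1 at 11-12 days over 18897 genes, 72%, 34%, 44% and 88% of genes changed by a log2 of -2, -1, 1 and 2 were called, with 7 unchanged genes called. The changed genes were a small random set from all levels. These shares therefore do not give the chance of a call for the members, most of which have few counts. DESeq2 1.42.0, RLE and upper-quartile factors, no filter, a block for the replicate letters, the non-unique percent as covariate, only the groups compared, and leaving out libraries were alternatives; they were also applied to the list counts, and the values without fae1 A of 7-8 days were extended to uncalled members and correlations, both after seeing the data. Ratios of summed counts carry exact 95% intervals. Intervals and floors cover counting error only.

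Sequences and positions come from RefSeq TAIR10.1; of 32810 loci of the deposited table on the same chromosome, 32809 overlap the reference gene. Protein identities are from translated RefSeq coding sequences aligned with Biopython 1.88.

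The members and lists were chosen with earlier results of these data known. The genes named by rule are the members and up to 3 other WRKY genes each way called in PDAT minus fae1 at 11-12 days, at an average log2 CPM of at least 2. Up to 3 genes per list called in that comparison were added, or the 2 most abundant where none was called. The 5 genes most like WRKY33 complete the rule. GSTF6, ERF6 and ABI5 were named outside this rule because PDAT minus CL37 called them, after their values were seen. MPK3 is also outside it.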

Additional observations from a re-analysis of the deposited data

Results flagged for a closer look

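WRKY33 was called for a difference between 2 lines in its change with age. The call was lost without any 1 of 8 of the 12 libraries, with an adjusted p of 0.0546 to 0.378. The test also uses CL37 libraries of the comparison behind the choice of members. From 7-8 to 11-12 days it rose by 2.69 on the log2 scale in PDAT and by 6.56 in CL37, and the test of the difference itself gave -3.87 ± 0.86 (edgeR, adjusted p = 0.0292). The lowest group in this difference is PDAT of 7-8 days, with 1, 12 and 5 counts. Without PDAT B of 7-8 days the difference was -3.06 with an adjusted p of 0.378, and without PDAT A of that stage it was -4.44 and was called. The groups hold 3 libraries each, so single libraries were not screened for outliers.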

How the results depend on the processing

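Under the alternatives, 25 called log2 changes of members were followed through 354 values: 310 kept direction and call, 44 kept direction without the call and 0 reversed. Of 207 counts of called members, 178 stayed within 1.5 times. Both totals include CL37 minus fae1, which is a description, and WRKY40, which passed the filter through CL37 of 11-12 days. They describe the fits and support nothing about the members. The count for fae1 with age (1) became 2 with the replicate block, 0 with the non-unique percent as covariate, 0 with only the groups compared, 0 without replicate C of both fae1 and CL37 at 11-12 days, and 0 to 1 with 1 library left out. CL37 minus fae1 at 9-10 days (2) became 0 with only the groups compared. PDAT minus fae1 at 11-12 days (2) became 1 without these 2 libraries and 1 to 2 with 1 library left out. PDAT minus CL37 at 11-12 days (5) ran from 2 to 5 with 1 library left out, and at 9-10 days (0) it was 2 with DESeq2 and 0 to 2 with 1 library left out, the 2 being without CL37 C. DESeq2 called 1 in PDAT minus fae1 at 9-10 days and 1 in the difference of the PDAT and fae1 changes with age. The difference of the PDAT and CL37 changes with age (1) ran from 0 to 1 with 1 library left out. The other counts stayed within 1.5 times. Fewer samples enter the fits without libraries; otherwise the cause was not tested. In PDAT minus CL37 at 11-12 days WRKY33 ran from -4.42 to -4.12 and WRKY25 from -3.20 to -2.78 and both kept their calls under every alternative, as did WRKY33, WRKY25 and WRKY6 with age in PDAT. WRKY6 lost its call against CL37 with the non-unique percent as covariate (adjusted p = 0.13), with which its change with age in PDAT was 2.17 (adjusted p = 0.0244), and WRKY18 lost its call with upper-quartile factors (0.0665).

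Deviations of same-letter libraries correlated at -0.37 to 0.38, with 12 of 36 pairs over 0.1. All 3 pairs were over 0.1 in PDAT minus CL37 at 7-8 days (0.31, 0.11 and 0.23) and PDAT minus fae1 at 9-10 days (0.21, 0.13 and 0.26), where the replicate block left both counts at 0, and not in the other 10 comparisons, whose letters were not taken to pair samples. The replicate block changed no count of members by more than 1.5 times other than that for fae1 with age.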
